A study of Oryza sativa with 4 samples.

Results

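bZIP23 was measured here by 1 probe set on 4 Affymetrix Rice Genome Arrays. The gene was found by its name: the gene table lists bZIP23 (written there as BZIP23 and OsBZIP23) as a synonym of LOC4330838, together with ABF2 and AREB1. It is 1 of 17905 genes that the probe set annotation covers, and its probe set is 1 of 57258 for rice. No probe set that is paired with several genes includes it. The leaves came from 4-leaf-stage rice seedlings of cultivar ZH11 (Zhonghua 11), sampled at 0 h without stress and after 2 h in 20% PEG, a solute that makes water harder for roots to take up and is used to mimic drought. WT at 0 h, WT after 2 h of PEG, ABA8ox3 RNAi at 0 h and ABA8ox3 RNAi after 2 h of PEG had 1 array each. The labels give WT as ZH11 wild type, while the study's methods name pYL-transformed Zhonghua 11 as the WT of the work. The RNAi plants carry a construct against OsABA8ox3, an ABA 8'-hydroxylase that breaks down abscisic acid (ABA), and belong to a single line, RNAi-9. For this line the study reports a single insertion and, by quantitative PCR, a significant decrease of OsABA8ox3 transcript. The promoter of the silencing construct is not given in the sources used here.

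ABA is the main hormone of the plant response to water loss. When it binds receptors of the PYL family, these receptors hold back protein phosphatases 2C (PP2C) of clade A, which otherwise keep SnRK2 protein kinases (named SAPK in rice) inactive. The released kinases phosphorylate transcription factors with a basic region and a leucine zipper (bZIP). These factors bind DNA as dimers at ABA-responsive elements in the promoters of genes for dehydrins, other late embryogenesis abundant (LEA) proteins, PP2Cs and further regulators. bZIP23 is a rice factor of this ABA-responsive group, known as a positive regulator of ABA responses and of drought and salt tolerance, and its own transcript is known to respond to these stresses.

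Facts of the arrays that bear on all values are as follows. The deposited values are log2 signals, with a median between 5.32 and 5.45 on each array and a highest value between 15.45 and 15.69. With 1 array per condition there is no replicate spread, no p-value and no interval, and a change after PEG cannot be told apart from whatever 2 h of time or handling brought. A gene is counted as changed past 2-fold, that is, past 1 in log2. The leaf label was read from the 3 measured leaf markers of 7, with CAB2R, a light-harvesting protein gene, between 15.1 and 15.5 and PORA and PORB between 10.5 and 12.9. Of the 2 measured root markers, LSI2 lay between 0 and 1.75 while NIP2-1, also called LSI1, lay between 8.51 and 10.2, and the 3 measured seed storage genes stayed between 0.905 and 5.63. The part of root markers in any result was not tested. The annotation pairs no probe set with OsABA8ox3, and the silencing was therefore not checked here.

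bZIP23 was much higher after PEG in both genotypes, and it was already higher in RNAi-9 than in WT before PEG. The log2 signal of bZIP23 was 10.47 in WT at 0 h, 14.32 in WT after 2 h of PEG, 11.47 in RNAi-9 at 0 h and 14.60 in RNAi-9 after 2 h of PEG. Both arrays after PEG were far above both arrays before it, and RNAi-9 was the higher genotype at each time as deposited, though not at 2 h when scaled to the hybridization controls, which lower every signal of the RNAi-9 array at 2 h relative to WT. On the linear scale of the authors' scaled signal, these values correspond to 1416, 20429, 2833 and 24829. In bulk leaf RNA, more transcript per cell and more cells with the transcript cannot be told apart.

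**Figure D1:**
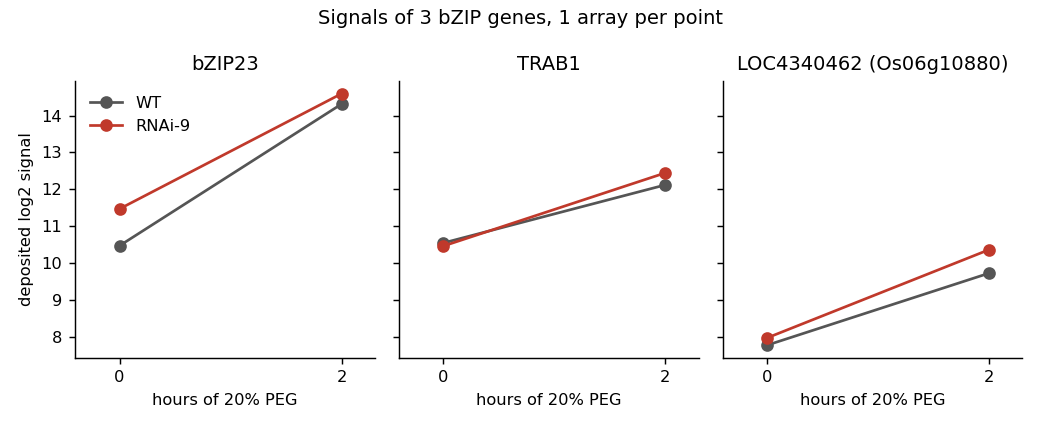
Deposited log2 signal (vertical axis) at 0 h and 2 h of PEG (horizontal axis) for bZIP23, TRAB1 and LOC4340462, with WT in grey and RNAi-9 in red and 1 array per point. All 3 genes were higher after PEG in both genotypes, and of the 3 only bZIP23 had a gap of 2-fold between the genotypes at 0 h (levels are read within a panel, not between panels).

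The first question was how far bZIP23 changed with PEG in each genotype. The log2 change was 3.85 in WT, or 14.4-fold, and 3.13 in RNAi-9, or 8.76-fold. Over 2-fold rises were common on these arrays, reaching 21.9% of all probe sets for WT, 20.6% for the RNAi line and 9.31% for both together. Signals near the bottom of the scale vary widely, so bZIP23 was also placed among the 2705 probe sets whose mean log2 signal over the 4 arrays lay within 1 of its own mean of 12.71. Of these, 9.50% were over 2-fold higher in both genotypes. Only 17 of the 2705 rose more than bZIP23 in WT, and 24 rose more in RNAi-9. In this band the middle 95% of probe sets ran from −1.44 to 2.62 for WT and from −1.45 to 2.20 for the RNAi line, which places bZIP23 above that range in both. The rise also stayed past 2-fold under all 9 alternatives, where it was 3.76 to 3.96 for WT and 2.86 to 3.27 for the RNAi line. Those for signals under 6 or for several probe sets could not move it.

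The second question was whether silencing OsABA8ox3 went with another level of bZIP23. At 0 h the signal in RNAi-9 exceeded that in WT by 1.001 in log2, or 2.00-fold, which lies on the 2-fold line itself. Over 2-fold higher signals in RNAi-9 at 0 h were found for 18.4% of all probe sets, but for 2.70% of the 2705 with a mean signal like that of bZIP23. This band is centred on the 4-array mean of 12.71, whereas bZIP23 at 0 h was lower, at 10.47 and 11.47. The band therefore does not match its level at 0 h. Among 23875 probe sets with a mean signal of at least 6, 5.44% had a larger positive difference. In the band of 2705 probe sets, 72 had a larger positive difference, and the middle 95% ran from −0.82 to 1.02, so bZIP23 lay just inside its upper end. The difference was between 0.88 and 1.05 under the other scalings and settings, and it fell to 2-fold or less in 4 of 9. Of the 5 that stayed past 2-fold, only quantile normalization, at 1.05, could move bZIP23. Those for signals under 6 or for several probe sets could not.

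After 2 h of PEG the genotypes were close. The 2 signals, 14.32 in WT and 14.60 in RNAi-9, lay near the highest values of their arrays, 15.45 and 15.63. Whether this narrowed the gap or the difference of changes was not tested. RNAi-9 exceeded WT by 0.28, or 1.22-fold, where 17.0% of all probe sets were over 2-fold higher. A difference of this size is unremarkable in the band of like mean signals, where 39.0% of the probe sets differed by more in either direction. Scaling by the 9 bacterial and phage hybridization controls turned it to −0.14. That scaling shifts every probe set of an array alike and moved the median 2 h difference over all probe sets to −0.43, and relative to this median bZIP23 stayed 0.28 higher. The other 8 of 9 alternatives kept the direction, though those for signals under 6 or for several probe sets could not change it.

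The third question was whether the change itself differed. The log2 change of bZIP23 in RNAi-9 minus that in WT was −0.72, that is, the fold in WT was 1.65 times the fold in RNAi-9. A change over 2-fold smaller in RNAi-9 was found for 21.7% of all probe sets, and bZIP23 was not among them as deposited. The same direction was found under all 9 other settings, between −1.09 and −0.64, including those that could not move bZIP23. In the band of like mean signals, 4.77% of the probe sets had a lower difference of changes, and 10.4% among those with a mean of at least 6. As deposited, the difference of changes is the 2 h difference of 0.28 minus the 0 h difference of 1.001. Against the WT 0 h array as a common baseline, bZIP23 in RNAi-9 after PEG stood 4.13 higher, or 17.5-fold. In linear signal the order of the rises was the other way round, with an increase of 19013 in WT and of 21996 in RNAi-9. The ratio of these increases was 1.16 as deposited, from 1.01 to 1.18 under the other scalings, and 0.834 with the hybridization controls, which lower all signals of the RNAi-9 array at 2 h.

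**Figure D2:**
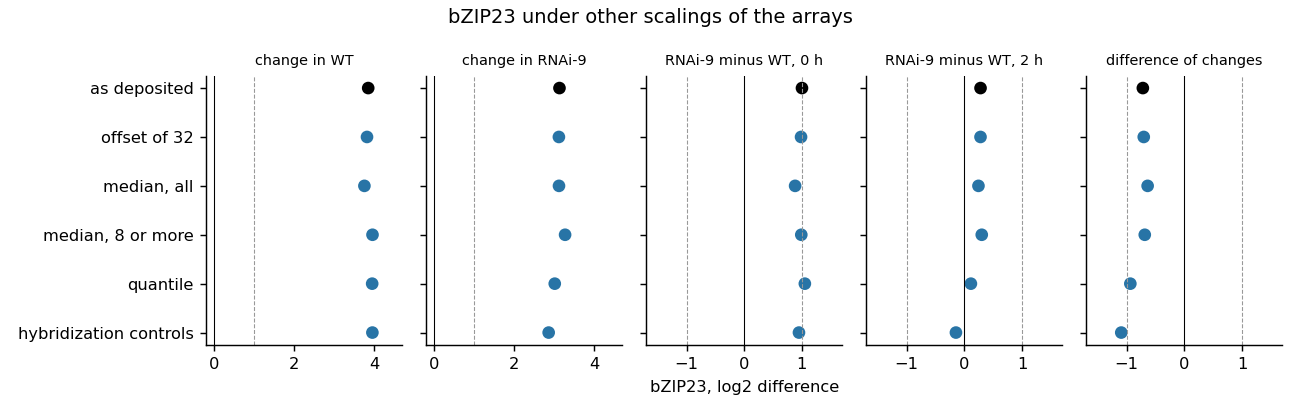
Log2 differences of bZIP23 (horizontal axes, 1 panel per contrast) as deposited (black) and under 5 other scalings or an offset (blue), with dashed lines at 2-fold. The changes after PEG stayed between 2.86 and 3.96, the difference at 0 h lay between 0.88 and 1.05, and the difference at 2 h crossed 0 with the hybridization controls.

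The pattern of bZIP23, higher in RNAi-9 at both times with a smaller rise, was also found for other genes that rose with PEG. Among the 257 probe sets of the signal band that rose past 2-fold in each genotype, bZIP23 included, 202 were higher in RNAi-9 at 0 h (78.6%), 189 had the smaller rise in RNAi-9 (73.5%) and 143 were higher in RNAi-9 at 2 h. All 3 held for 96 of them, or 37.4%. The shares were lower over all 5333 probe sets that rose past 2-fold in each genotype, at 61.0% higher at 0 h, 55.7% with the smaller rise and 24.8% with all 3. Of all 2705 probe sets of the band, risen or not, 52.4% were higher in RNAi-9 at 0 h and 46.4% at 2 h. Their median difference of changes was −0.04. Among risen probe sets of the band, the 143 of 257 higher at 2 h depended on the scaling. With quantile normalization it was 107 of 226, and with the hybridization controls 33 of 207, which limits the count with all 3 too. The smaller rise and the higher 0 h signal use the same RNAi-9 and WT arrays at 0 h, so these counts are not independent of each other. The median difference at 0 h over the 257 was 0.26, against 1.001 for bZIP23. Over all signals, 365 of 5333 probe sets over 2-fold higher in both genotypes rose at least as much as bZIP23 in both.

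**Figure D3:**
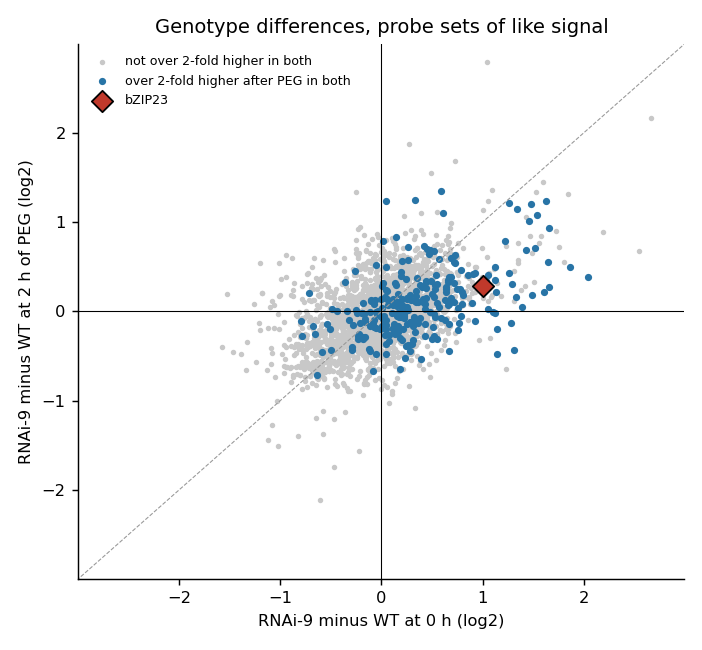
RNAi-9 minus WT in log2 at 0 h (horizontal axis) and at 2 h of PEG (vertical axis) for the 2705 probe sets with a mean signal within 1 of bZIP23, with 1 point per probe set, those that rose past 2-fold in each genotype in blue and bZIP23 as a red diamond. The blue points lie mostly right of 0, with 202 of 257 higher in RNAi-9 at 0 h, and bZIP23 stands at 1.001 and 0.28.

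TRAB1, another bZIP factor of ABA signalling in rice, was the only one of the context genes that could be paired by name. bZIP46, bZIP72 and bZIP12 were not matched by name, so no values are given under these names. TRAB1 had log2 signals of 10.54 (0 h) and 12.12 (2 h) for WT and of 10.46 and 12.45 for the RNAi line, all arrays after PEG being above those before. The rise was 1.58 for WT and 1.99 for the RNAi line. At 0 h RNAi-9 differed from WT by −0.08, and the difference of changes was 0.41, so TRAB1 differed from bZIP23 in the sign of both values. LOC4340462 (Os06g10880), which the study's pathway table lists beside TRAB1 as a bZIP gene of ABA signal transduction, was added after its values had been seen. The gene table gives LOC4340462 no bZIP number, and whether it is one of the genes not matched by name was not settled here. Its signals were 7.76 and 9.72 in WT and 7.96 and 10.36 in RNAi-9. Like TRAB1 it rose more in RNAi-9, by 2.40 against 1.96 in WT, with a 0 h difference of 0.20. Scaling to the hybridization controls moves this difference of changes alike for all genes, to 0.04 for TRAB1, 0.07 for LOC4340462 and −1.09 for bZIP23. With 1 array per condition, whether bZIP23 and these genes differ in their response to the RNAi could not be tested.

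Among the genes that carry a bZIP number, bZIP23 had the largest rise in both genotypes as deposited. Of 19 such genes 18 were measured, and 3 passed 2-fold upwards in both genotypes, against 10.3% of all 17905 genes. Besides bZIP23 these were bZIP60, at 1.46 in WT and 1.07 in RNAi-9, and bZIP63, at 1.01 and 1.046, the values of bZIP63 being only just past the line. Scaling to the hybridization controls, which lowers all changes in RNAi-9, left 1 gene of the 18. The name bZIP60 is also a synonym of the bZIP50 gene. bZIP08 was the 1 gene over 2-fold lower in both (−1.41 and −1.12), where 7.70% of all genes were. The median change of the other 17 was 0.27 in WT and −0.25 in RNAi-9, where the median over all genes was −0.18 and −0.19. Of the 17, 9 stayed within 2-fold in both genotypes. bZIP02 came nearest to bZIP23 in RNAi-9 with a rise of 3.04 (0.74 in WT), from a signal of 3.21 to 6.26. With quantile normalization bZIP02 passed bZIP23 there, at 3.05 against 3.01, and with signals under 6 raised to 6 the next gene was bZIP60 at 1.07. In WT, bZIP23 came first under each setting. The gene for bZIP50, a factor of the unfolded protein response in rice, changed by 0.66 and 0.73.

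At 0 h, 4 of the 18 bZIP genes were over 2-fold higher in RNAi-9, namely bZIP23, bZIP52, bZIP79 and bZIP83, where 10.6% of all genes were. bZIP52 had signals of 9.83 and 10.10 in WT and of 11.33 and 10.43 in RNAi-9. It was thus the highest on the RNAi-9 0 h array but did not rise past 2-fold in either genotype, with changes of 0.27 and −0.90. bZIP79 and bZIP83 had a mean signal below 6, and both rose in WT and fell in RNAi-9. A floor of 6 brought both within 2-fold at 0 h. Of the 17 genes other than bZIP23, 16 then lay within 2-fold, against 14 as deposited. That left bZIP52 and bZIP23, the latter on the line at 1.001. The 10.6% was taken without this floor, so the 4 of 18 is not read as an excess.

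**Figure D4:**
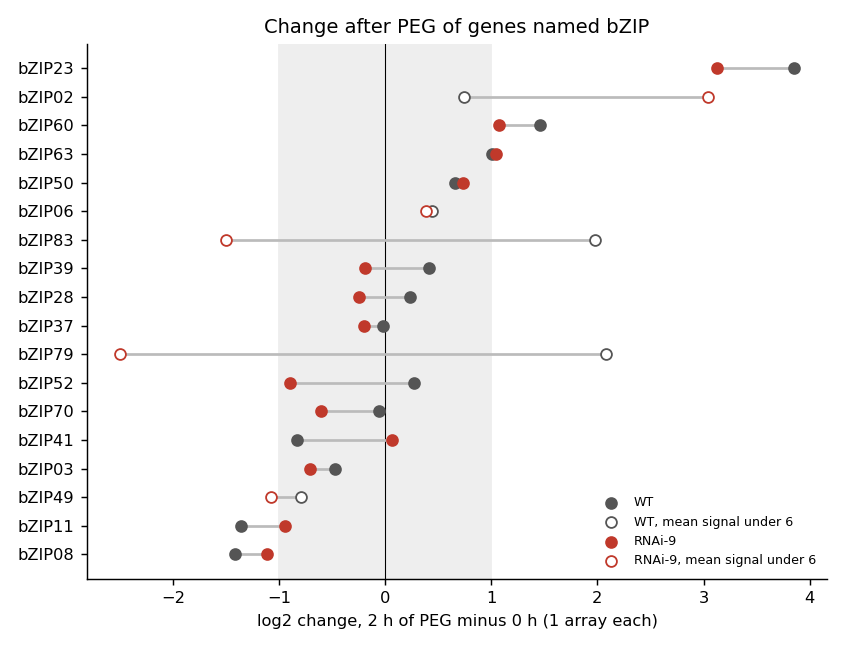
Log2 change after PEG (horizontal axis) of the 18 measured genes with a bZIP number, with WT in grey and RNAi-9 in red, open symbols for genes with a mean signal under 6 and the grey band marking changes within 2-fold. bZIP23 is at the top with 3.85 and 3.13, and among genes with a mean signal of at least 6 the next is bZIP60 at 1.46 and 1.07.

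The genes around bZIP23 in the ABA pathway were described in the order of the pathway. The 1 measured receptor gene, PYL11 (also listed as PYL5), had signals of 12.09 and 11.77 in WT and of 12.43 and 11.58 in RNAi-9, with changes of −0.32 and −0.84. Of the 10 SnRK2 kinase genes, 5 were over 2-fold higher in both genotypes (10.3% of all genes) and 0 lower in both (7.70% of all genes), with a median change of 0.67 for WT and of 1.22 for the RNAi line. SAPK9 rose by 3.38 and 3.25 and thus slightly exceeded bZIP23 in RNAi-9. SAPK2 rose by 2.16 and 1.99, whereas SAPK1, SAPK3, SAPK5, SAPK8 and SAPK10 stayed within 2-fold. SAPK8 was at 0.07 and −0.27 and SAPK10 at 0.12 and 0.92.

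Clade A PP2C genes, which encode the brakes of the pathway and are themselves ABA-induced, had the highest median rise of these lists. Of 7 measured members of this list, 6 were over 2-fold higher in both genotypes, against 10.3% of all genes, the medians being 4.24 (WT) and 4.33 (the RNAi line). PP2C51, 1 of the 6, had WT signals of 2.24 and 5.51, both under 6, so its rise in WT is unsure. In each genotype 5 of the 7 rose more than bZIP23. PP2C06 came closest to the pattern of bZIP23, with signals of 9.03 and 13.46 in WT and of 9.92 and 13.78 in RNAi-9. As for bZIP23, RNAi-9 was higher at 0 h (by 0.89), and the difference of changes was −0.58. PP2C68 ran the other way, with a 0 h difference of −0.98 and rises of 4.94 for WT and 6.40 for the RNAi line. PP2C53 stayed within 2-fold at 0.89 and 0.35. PP2C49 and PP2C50 had no paired probe set and are not used here.

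Of 13 measured genes of ABA and dehydration response, 9 were over 2-fold higher in both genotypes, against 10.3% of all genes, and 0 were lower in both, against 7.70%, the medians being 2.50 (WT) and 2.97 (the RNAi line). The largest rises of all these pathway genes were those of HOX24, a homeobox gene, at 7.57 and 7.98 and of RAB16B, a dehydrin gene, at 7.37 and 6.70. Dehydrins and other LEA proteins protect cell structures during drying. RAB16C went from 7.32 up to 9.82 in WT and in the RNAi line from 8.43 up to 11.41. Like bZIP23, 4 of the 13 were over 2-fold higher in RNAi-9 at 0 h, against 10.6% of all genes. The difference narrowed by 2 h for RAB16B (1.48 to 0.81) and salT (1.60 to 1.10), as it did for bZIP23, and widened for RAB16C (1.11 to 1.59) and RAB21 (1.32 to 1.81). RAB16B stood at 4.52 in WT at 0 h, under 6, where signals vary widely. This limits its rise in WT, its place among the 4 and its narrowing. LEA19 had a genotype difference of −0.94 at 0 h and of 1.07 at 2 h. The homeobox gene HOX22 was, like bZIP23, higher in RNAi-9 at both times, by 0.44 and 0.26, and rose by 2.95 and 2.77. P5CS1, for the first enzyme of proline synthesis, changed by 0.62 and 0.85, within 2-fold. In this list 5 of the 13 genes changed less in RNAi-9 than in WT, the side on which bZIP23 lay. Of these, Dhn1 and P5CS2 had mean signals of only 6.12 and 6.25, as averages over 3 and 4 probe sets that are not shown singly here. Over all probe sets the median difference of changes was −0.045 as deposited and −0.42 with the hybridization controls. The sign of a small difference thus depends on the scaling.

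**Figure D5:**
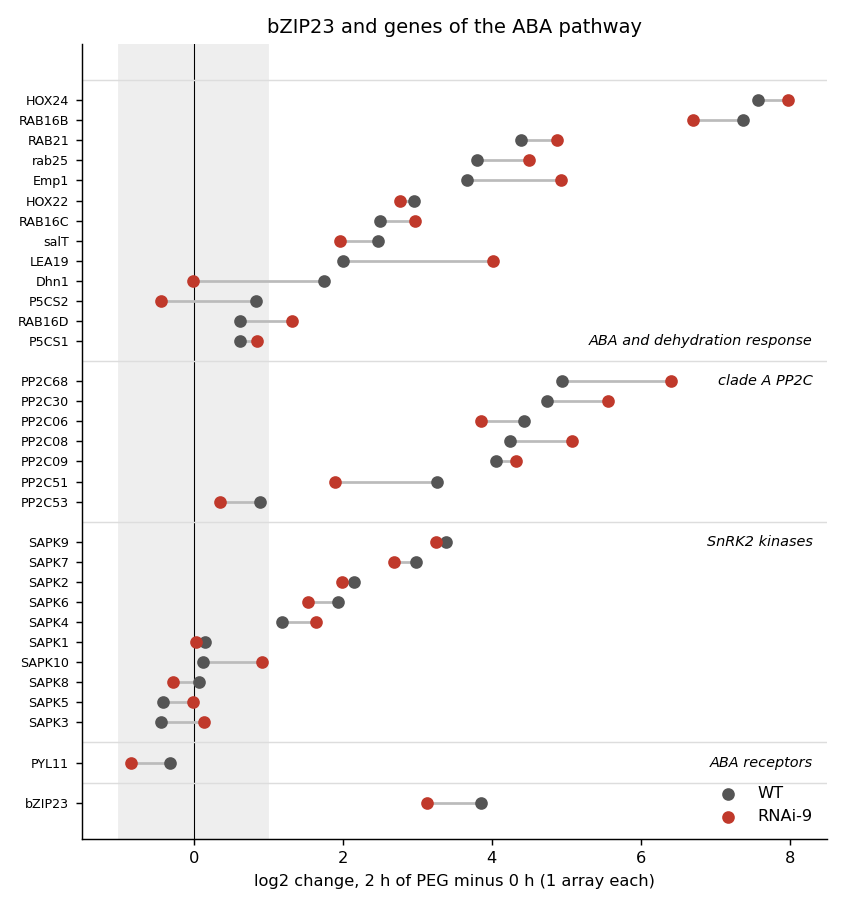
Log2 change after PEG (horizontal axis) of bZIP23 (bottom row) and of the measured genes for ABA receptors, SnRK2 kinases, clade A PP2Cs and ABA and dehydration response, with WT in grey and RNAi-9 in red and the grey band marking changes within 2-fold. With 3.85 and 3.13, bZIP23 lies above all 10 kinase genes in WT and below 5 of the 7 PP2C genes in each genotype.

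The genes whose pattern over the 4 arrays was most like that of bZIP23 were looked up among 1945 genes with a name and a mean log2 signal of at least 6. Likeness was the root mean square difference over the 4 arrays after each gene had been centred on its own mean. bZIP23 itself lay 1.78 from its own mean on this measure, and 43 of the named genes lay within 0.5 of it. The nearest was CML5, which encodes a calmodulin-like calcium sensor, at 0.12. CML5 had signals of 5.34 and 9.32 in WT and of 6.58 and 9.39 in RNAi-9. The NAC factor gene NAC5 (also listed as NAC071) followed at 0.17, with rises of 3.82 and 2.66 and a 0 h difference of 1.18. The heat stress factor genes HSF24 and HSF07 stood at 0.21 and 0.22, and SAPK9 stood at 0.21. SAPK9 was the 1 gene of the 10 nearest that belonged to the ABA lists above. Next were PXG at 0.24, RAA1 at 0.25, CSLC9, a gene of the cellulose synthase-like family, at 0.26, TPP2 at 0.26 and SMR1 at 0.26. All 10 passed 2-fold upwards in both genotypes and were higher in RNAi-9 at 0 h, by 0.47 for SAPK9 up to 1.66 for RAA1. Both traits follow from choosing genes by closeness to bZIP23 and are no separate result. In WT at 0 h, CML5, HSF24 and CSLC9 had signals under 6, at 5.34, 5.73 and 5.34. This likeness rests on 4 arrays, is dominated by the change after PEG and says nothing of function.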

How the data were processed

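The authors collected and normalized the signals of the Affymetrix Rice Genome Arrays with the GCOS software and took logarithms. MAS5 is named in the submitters' processing notes, with no version. The deposited values are log2 signals, each array scaled to a target value not given in the sources used here. Comparisons covered all 57258 rice probe sets, without the 123 control probe sets. Differences were taken between deposited log2 signals with Python 3.11.15, NumPy 2.4.6 and pandas 2.3.3, with no floor and no filter. The calculation was run on simulated arrays with known changes, a floor of 6 and no noise. That checks the arithmetic only, not the precision of these arrays. Precision is limited by 1 array per condition, so no test was made. Symbols were looked up in the platform's annotation and in RefSeq genes of assembly ASM3414082v1, used for names only. That gave 1 gene for 22436 probe sets, several for 95 and none for 34727. The probe sets of a gene were averaged. bZIP23 and the gene lists were chosen with earlier results of these data known. The named genes are bZIP23, the context bZIP genes, members of lists by symbol with emphasis on those over 2-fold in both genotypes, and the 10 named genes nearest in pattern. Further list members were named after their values had been seen. The alternatives were a floor of 6, a mean signal of at least 6, an offset of 32 on the linear signal, scaling to the all-probe-set median, to the median of probe sets of at least 8 on all arrays or to 9 hybridization controls, quantile normalization, the highest probe set per gene, no probe sets with shared hybridization, the WT 0 h baseline, and thresholds of 1.5-fold and 3-fold.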

Additional observations from a re-analysis of the deposited data

Results flagged for a closer look

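These genes moved past 2-fold in opposite directions in the 2 genotypes after PEG, and the difference was not tested, with 1 array per condition. The change of bZIP79 was 2.08 for WT and −2.50 for the RNAi line, and that of bZIP83 was 1.98 and −1.503. All 4 signals of bZIP79 lay below 6, as did 3 of the 4 of bZIP83, and with signals under 6 raised to 6 no bZIP gene moved past 2-fold in opposite directions. The root marker LSI2 changed by 1.75 and −1.20, with all its signals at 1.75 or less.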

How the results depend on the processing

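The rise of bZIP23 after PEG kept its direction and stayed past 2-fold in both genotypes under all 9 alternatives. Those for signals under 6 or for several probe sets could not move any bZIP23 value. The difference between RNAi-9 and WT at 0 h was 0.98 with the offset of 32, 0.88 with the median of all probe sets, 0.99 with the median of probe sets of at least 8 and 0.95 with the hybridization controls, each just under 2-fold, and its 1.001 does not reach a threshold of 3-fold. The difference at 2 h was 0.11 with quantile normalization and −0.14 with the hybridization controls. The difference of changes was −1.09 with the hybridization controls, past 2-fold, and its −0.72 passes a threshold of 1.5-fold, which was added after the data had been seen. Relative to the median of all probe sets, a scaling by a constant leaves each bZIP23 contrast as it was, at 3.95, 3.26, 0.96, 0.28 and −0.67. The hybridization controls moved the median of all probe sets to −0.40 for the change in RNAi-9 and to −0.43 for the genotype difference at 2 h. The count of bZIP genes over 2-fold higher in both genotypes was 1 with the hybridization controls, 5 at 1.5-fold and 1 at 3-fold. TRAB1 did not reach 3-fold in both, which leaves 0 of 1. The counts for the pathway genes, 11 for receptors, PP2Cs and kinases together and 9 for the response genes, stayed within 1.5 times under each alternative. No paired analysis was possible because each condition has 1 array. The cause of each shift was not tested.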
